A study of Homo sapiens with 6 samples.

Results

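The hypoxia and glycolysis genes comprise 44 genes of the 17064 in the expression table of 6 MDA-MB-231 libraries. They were chosen by role, as targets and sensors of the hypoxia-inducible factors (HIF) and as genes of glucose uptake, glycolysis and lactate handling. NDRG1 was selected on its large difference between libraries, so its levels are given as a description, with no test. All 44 symbols were found, each on 1 gene ID. The level of a gene is given in FPKM, read counts scaled to the length of the transcript and the depth of the library, and 42 members had a mean of at least 1 FPKM over the 6 libraries. The other two, CA9 and ALDOC, are given by their counts.

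The study asked what loss of the related kinases MRCKα (gene CDC42BPA) and MRCKβ (gene CDC42BPB) does to breast cancer cells. MDA-MB-231 is a human triple-negative, mesenchymal-like breast cancer line derived from a metastasis. The 6 libraries were 2 vector control libraries from separate transductions of the empty vector, 1 CDC42BPA knockout library (MRCKα KO), 1 CDC42BPB knockout library (MRCKβ KO) and 2 double knockout libraries (DKO 1 and DKO 2) made with different guide RNAs. All cells had been transduced with lentivirus and selected with an antibiotic, the knockouts by CRISPR editing, and all were harvested from subconfluent cultures. The knockouts were uncloned pools, each single knockout is 1 library without a replicate, and the labels name no oxygen or glucose treatment.

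HIF is a pair of proteins, an oxygen-regulated α subunit such as HIF-1α (HIF1A) or HIF-2α (EPAS1) and a stable partner. With oxygen, prolyl hydroxylases (EGLN1, EGLN3) mark the α subunit for destruction, so HIF activity is set mainly at the protein level, which was not measured here. When oxygen is scarce the dimer binds short ACGTG or GCGTG sequences near its targets and raises genes of glucose uptake, glycolysis, lactate export, acid balance, vessel growth and matrix modification. Many cancer lines, MDA-MB-231 among them, run glycolysis at a high rate also in air.

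The libraries held 10349898 to 10657857 expected counts each, and the 44 genes took between 1.30% and 1.60% of them. Markers of the line were present, with VIM, the mesenchymal intermediate filament, at 1532 to 2052 FPKM, while the estrogen receptor gene ESR1 (0.53 to 0.87 FPKM) and the E-cadherin gene CDH1 (0.25 to 0.64 FPKM) were low. For 15 of the 44 members, such as ENO1, PGAM1, BNIP3 and SLC2A3, the counts were not whole in at least 1 library. Reads were thus split between genes that share sequence, and these levels are less certain. The RNA of the edited genes does not check the labels, since CDC42BPA was 29.4 FPKM in MRCKα KO against 36.4 and 23.3 in vector 1 and vector 2. CDC42BPB was 25.7 FPKM in MRCKβ KO against 30.3 and 29.1. On Western blots, the paper reports very efficient loss of both proteins in its uncloned MDA-MB-231 knockouts. The vector libraries stood apart from each other. Vector 2 was the highest library for 20.5% of all genes with a mean of at least 1 FPKM and the lowest for 25.3%, and its log2 ratio to vector 1 had a median of 0.07 over the tenth of genes with the shortest transcripts and -0.13 over the tenth with the longest.

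The HIF recognition core lay close to the start of many members. In the RefSeq promoter table (GRCh38.p14), 40 of the 44 genes had an entry, and the 250 bases before the start held ACGTG or GCGTG on either strand in 29 of them (72.5%), against 58.1% of 9653 genes with a mean of at least 1 FPKM and 43.1% of all 27305 promoters. ACGTG alone was found in 19 of the 40 (47.5%), against 23.9% and 18.7%. BNIP3L, NDRG1, SLC2A3 and VEGFA were the members with no entry. The stretches of 5 genes are shown as examples that hold several cores, DDIT4, BHLHE40 and BNIP3 from the genes that differ between libraries, and LDHA and PGK1 from the comparison of DKO with vector. Other genes of the same results have few or none in this window, with 0 in MXI1, HK1 and EGLN3 and 1 each in HIF1A, P4HA1 and ANGPTL4. Each is printed 5′ to 3′ on the strand of the gene and ends at the base before the start, with every core in capitals on either strand and cores that overlap joined and counted as 1. A core is a match of letters, not a measured binding site.
BNIP3, chr10:131981924-131982173, minus strand: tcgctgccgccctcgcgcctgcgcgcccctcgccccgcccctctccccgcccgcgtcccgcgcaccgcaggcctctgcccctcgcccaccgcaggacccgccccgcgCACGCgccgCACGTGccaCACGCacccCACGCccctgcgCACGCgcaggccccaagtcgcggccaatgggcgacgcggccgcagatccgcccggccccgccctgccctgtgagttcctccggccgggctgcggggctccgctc
DDIT4, chr10:72273674-72273923, plus strand: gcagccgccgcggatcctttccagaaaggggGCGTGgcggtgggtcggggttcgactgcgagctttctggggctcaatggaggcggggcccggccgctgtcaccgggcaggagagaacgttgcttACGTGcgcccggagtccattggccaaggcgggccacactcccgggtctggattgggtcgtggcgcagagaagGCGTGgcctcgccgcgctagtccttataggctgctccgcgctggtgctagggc
BHLHE40, chr3:4979187-4979436, plus strand: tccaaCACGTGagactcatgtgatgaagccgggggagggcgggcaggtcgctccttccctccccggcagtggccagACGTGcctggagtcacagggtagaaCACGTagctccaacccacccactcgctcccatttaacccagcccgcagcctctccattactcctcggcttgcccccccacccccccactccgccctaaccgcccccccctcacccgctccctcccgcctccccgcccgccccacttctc
LDHA, chr11:18394313-18394562, plus strand: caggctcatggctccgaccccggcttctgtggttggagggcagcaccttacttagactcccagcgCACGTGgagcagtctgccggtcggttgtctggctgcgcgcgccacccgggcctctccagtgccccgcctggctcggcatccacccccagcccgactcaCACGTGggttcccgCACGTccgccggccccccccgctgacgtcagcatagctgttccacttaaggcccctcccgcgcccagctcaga
PGK1, chrX:78103998-78104247, plus strand: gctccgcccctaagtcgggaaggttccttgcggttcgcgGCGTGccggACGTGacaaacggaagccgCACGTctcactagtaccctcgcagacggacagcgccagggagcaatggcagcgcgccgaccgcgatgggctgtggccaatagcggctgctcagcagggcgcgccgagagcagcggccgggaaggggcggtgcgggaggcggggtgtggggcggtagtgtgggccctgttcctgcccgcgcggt
The BNIP3 stretch has 5 cores between 143 and 104 bases before the start. DDIT4 has 3, of which the one nearest the start lies 53 bases before it, and BHLHE40 has 3 between 245 and 149 bases before it. LDHA has 3, at 185, 87 and 73 bases, and PGK1 has 3 grouped between 211 and 183 bases.

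NDRG1, a cytoplasmic protein induced by hypoxia and cell stress, was 83.4 FPKM in vector 1 and 23.9 in vector 2, 31.8 in MRCKα KO against 111 in MRCKβ KO, with 54.9 in DKO 1 and 29.9 in DKO 2. MRCKβ KO and vector 1 were high, DKO 1 was intermediate, and DKO 2, MRCKα KO and vector 2 were low. The highest library was 4.63 times the lowest. The libraries of 1 group differed as much as the groups did, with vector 1 at 3.49 times vector 2 (vector mean 53.6 ± 42.1 SD, n = 2) and DKO 1 at 1.83 times DKO 2 (DKO mean 42.4 ± 17.6 SD, n = 2). These are bulk libraries, in which fewer cells that express a gene and less RNA per cell cannot be told apart.

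The members closest to NDRG1 were DDIT4, ANKRD37, BHLHE40, MXI1 and HK1, by the correlation of log2 FPKM over the 6 libraries (Pearson r = 0.995, 0.962, 0.960, 0.954 and 0.927). DDIT4, an inhibitor of mTORC1 induced by stress, was 29.0 FPKM in vector 1 and 14.8 in vector 2, 15.9 in MRCKα KO against 34.6 in MRCKβ KO, with 22.1 in DKO 1 and 15.4 in DKO 2. The libraries stood in the same order as for NDRG1, over a smaller range, with vector 1 at 1.96 times vector 2. Of the 41 other members with a mean of at least 1 FPKM, 15 (36.6%) had an r of at least 0.8 with NDRG1, against 7.53% of 11690 genes, and the median r was 0.74 against -0.03. These are descriptions over 6 libraries, some of them replicates of each other, and they carry no p.

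**Figure D1:**
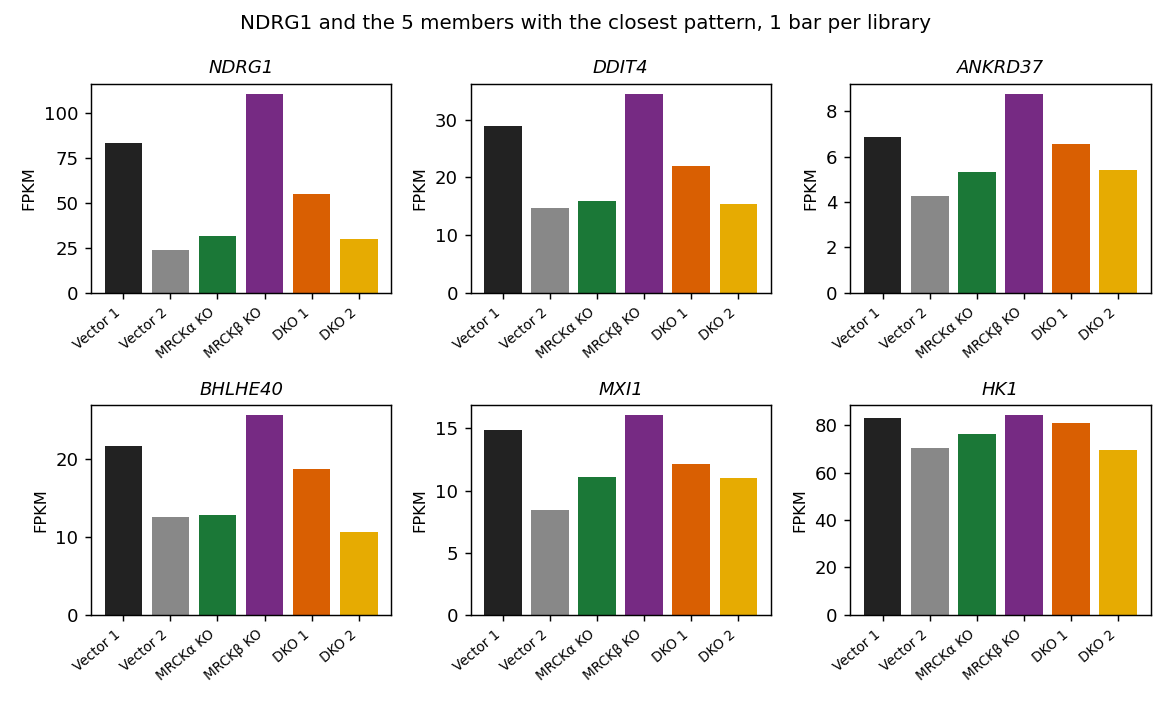
Level in FPKM (y axis, from 0) of NDRG1 and the 5 members whose pattern was closest to it, with 1 bar for each of the 6 libraries. In all 6 panels MRCKβ KO has the tallest bar and vector 1 the next, while HK1 spans only 1.21-fold against 4.63-fold for NDRG1.

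The same 2 libraries led most of the list. Vector 1 and MRCKβ KO were both above the other 4 libraries for 26 of the 42 members, against 11.5% of all genes, and both below the other 4 for 0 members, against 13.3%. NDRG1, whose values chose it and drew attention to these 2 libraries, is 1 of the 26, and 25 of the 41 other members remain without it. The counts by library in the rest of the text also include NDRG1 where it meets the condition, and are then 1 lower without it. MRCKβ KO was the highest library for 26 members (14.7% of all genes), vector 2 for 10 (20.5%), vector 1 for 5 (15.8%) and DKO 2 for ADM alone (20.4%), while MRCKα KO (17.6%) and DKO 1 (11%) were the highest for 0. The lowest library was DKO 2 for 15 members (15.3%), MRCKα KO for 13 (15%), vector 2 for 10 (25.3%), DKO 1 for 3 (9.46%), MRCKβ KO for ADM alone (16.8%) and vector 1 for 0 (18.1%). The range was at least 1.5-fold for 22 members, against 33.3% of all genes.

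Other lists were read in the same libraries. Of 6 fibroblast markers, the summed level was 11.2 FPKM in vector 1 and 3.75 in vector 2, 4.67 in MRCKα KO against 7.28 in MRCKβ KO, with 6.13 in DKO 1 and 3.97 in DKO 2. The sum, though not every marker, was high in the libraries where NDRG1 was high. PDGFRB made up much of it, at 5.90 FPKM in vector 1 and 4.65 in MRCKβ KO against 1.14 to 3.15 in the other 4. The collagen markers were also highest in vector 1, with COL1A1 at 3.26, COL1A2 at 0.84 and COL3A1 at 0.81 FPKM. They did not follow PDGFRB in MRCKβ KO. There COL1A1 was 2.25 FPKM against 2.56 in DKO 2, COL1A2 0.05 against 0.11 in vector 2, and COL3A1 0.19 against 0.23 in MRCKα KO. DCN was highest in vector 1 (0.29 FPKM) and next in MRCKβ KO (0.14), while LUM was highest in DKO 1 (0.14). Both did not exceed 0.29 FPKM in any library and were at 0 in vector 2. Of the leukocyte markers found, CD3E was at 0 in 5 libraries and the sum ran from 0.47 FPKM in vector 2 to 2.17 in MRCKβ KO, and the endothelial markers, with CDH5 at 0 in 4 libraries, summed to 0.93 to 1.92. The sum of 8 proliferation genes was lowest in MRCKβ KO (715 FPKM) and next lowest in vector 1 (764 FPKM), against 769 to 913 in the other 4. The part of these genes in the levels of the members was not tested.

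**Figure D2:**
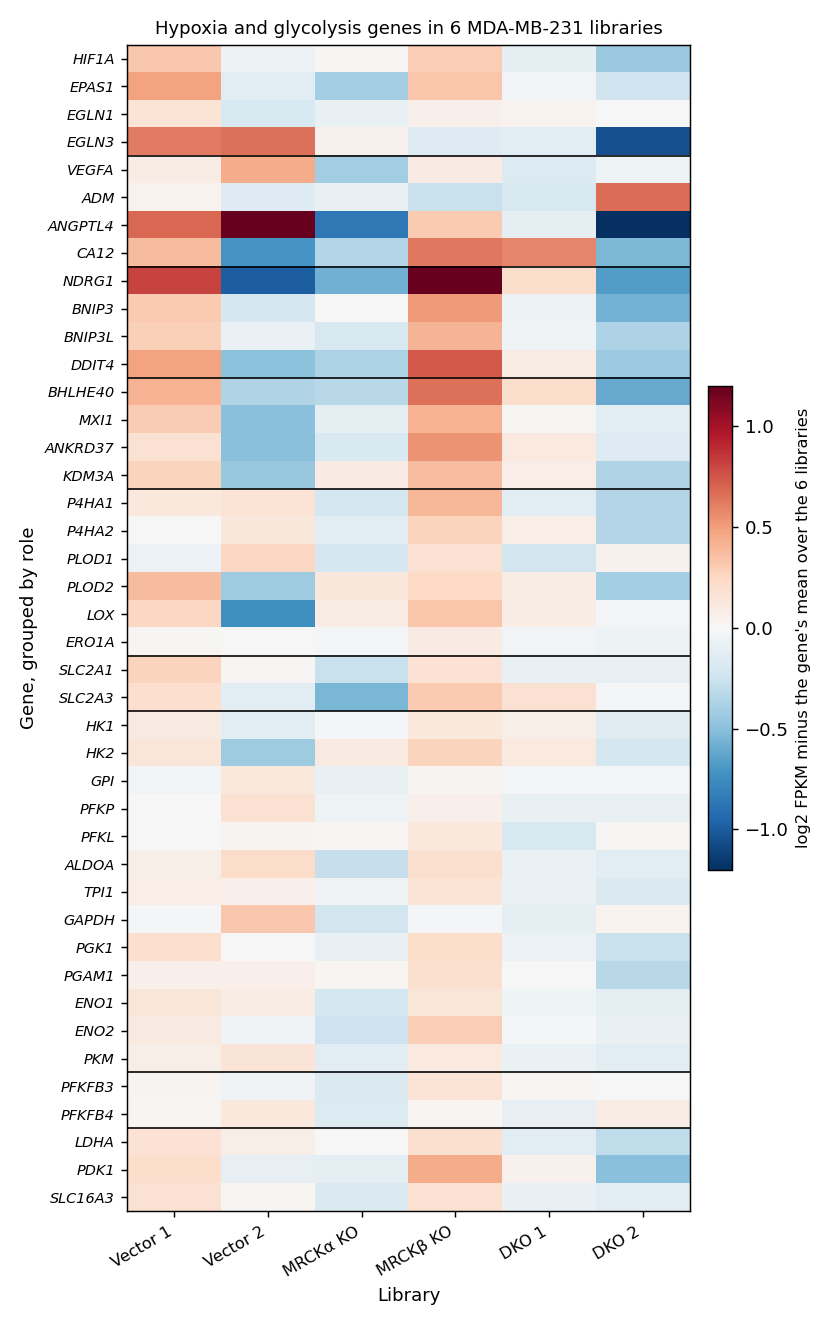
The 42 members with a mean of at least 1 FPKM (rows, grouped by role and separated by lines) in the 6 libraries (columns), coloured by log2 FPKM minus the mean of the gene over the libraries, red above and blue below. The columns of vector 1 and MRCKβ KO are mostly red, those of MRCKα KO and DKO 2 mostly blue, and the scale is cut at its ends.

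Among the HIF subunits and oxygen sensors, HIF1A was 160 FPKM in vector 1 and 123 in vector 2, 129 in MRCKα KO against 158 in MRCKβ KO, with 119 in DKO 1 and 94.1 in DKO 2. Both DKO libraries were below every other library (DKO mean 106 ± 17.3, vector mean 142 ± 26.6, SD, n = 2 each). EPAS1 was 33.1 FPKM in vector 1 and 21.6 in vector 2, 17.9 in MRCKα KO against 29.8 in MRCKβ KO, with 23.2 in DKO 1 and 20.1 in DKO 2. DKO 1 lay between the vector libraries and DKO 2 just below vector 2. EGLN1, the main hydroxylase that marks HIF-α in air, was even, at 29.0 and 22.9 FPKM in the vector libraries, 24.5 in MRCKα KO against 27.0 in MRCKβ KO, and 26.8 and 26 in DKO. EGLN3, a hydroxylase that is itself a HIF target, was low, at 1.88 and 1.94 FPKM in vector, 1.27 in MRCKα KO against 1.10 in MRCKβ KO, and 1.12 and 0.59 in DKO, and it was lower in all 4 knockout libraries than in both vector libraries. Its counts were 50 and 50 in vector and 17 in DKO 2, where the exact 95% Poisson interval, which covers counting error only, runs from 9.90 to 27.2.

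The secreted factors did not run with NDRG1 (Pearson r of log2 FPKM over the 6 libraries -0.005 for VEGFA, 0.254 for ANGPTL4 and -0.375 for ADM). VEGFA, the main growth factor of blood vessels, was 56.9 FPKM in vector 1 and 72.9 in vector 2, 39.9 in MRCKα KO against 57.3 in MRCKβ KO, with 47.5 in DKO 1 and 51.5 in DKO 2. Vector 2 was its highest library, and DKO 1, DKO 2 and MRCKα KO were below both vector libraries. ANGPTL4, an inhibitor of lipoprotein lipase, had the widest range of the 42 members (5.48-fold), with 3.48 and 4.99 FPKM in vector, 1.19 in MRCKα KO against 2.69 in MRCKβ KO, and 1.99 and 0.91 in DKO. It rested on few reads, 68 and 98 counts in vector, 23 in MRCKα KO and 54 in MRCKβ KO, and 39 and 17 in DKO. ADM, which encodes the vasodilator peptide adrenomedullin, ran the other way, at 88.2 and 77.0 FPKM in vector, 80.3 in MRCKα KO against 71.0 in MRCKβ KO, with 74.9 in DKO 1 and 136 in DKO 2, the one library that stood out.

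The carbonic anhydrases of the cell surface, which buffer the acid of glycolysis, were both low. CA12 was 2.12 FPKM in vector 1 and 1.00 in vector 2, 1.28 in MRCKα KO against 2.53 in MRCKβ KO, with 2.44 in DKO 1 and 1.12 in DKO 2. Each replicate pair was more than 2-fold apart, with vector 1 at 2.12 times vector 2 and DKO 1 at 2.18 times DKO 2. CA9, a gene often used as a marker of hypoxic cells, had 15, 3, 5, 21, 5 and 1 counts in vector 1, vector 2, MRCKα KO, MRCKβ KO, DKO 1 and DKO 2. Its order was that of NDRG1 in the high libraries, and the exact 95% Poisson intervals of MRCKβ KO (13.0 to 32.1) and vector 1 (8.40 to 24.7) overlapped. The interval of vector 1 also overlapped those of vector 2 (0.619 to 8.77), MRCKα KO and DKO 1 (1.62 to 11.7 each) but not that of DKO 2 (0.0253 to 5.57). That of MRCKβ KO lay above those of vector 2, MRCKα KO, DKO 1 and DKO 2.

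BNIP3 and BNIP3L, receptors that mark mitochondria for removal by autophagy, were high throughout. BNIP3 was 111 FPKM in vector 1 and 77.3 in vector 2, 89.1 in MRCKα KO against 126 in MRCKβ KO, with 85.4 in DKO 1 and 59.8 in DKO 2, the lowest library. BNIP3L was 45.4 and 35.0 FPKM in vector, 32.5 in MRCKα KO against 49.1 in MRCKβ KO, and 36.1 and 28.7 in DKO, with vector 2 and DKO 1 nearly equal. The 4 genes of mitophagy and stress, NDRG1 and DDIT4 included, were all above both vector libraries in MRCKβ KO, as were 30.3% of all genes. For BNIP3L the margin was small, at 49.1 against 45.4 FPKM in vector 1.

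The 4 nuclear targets were likewise all above both vector libraries in MRCKβ KO, against 30.3% of all genes. BHLHE40, a repressor that also acts in the circadian clock, was 21.7 FPKM in vector 1 and 12.6 in vector 2, 12.8 in MRCKα KO against 25.6 in MRCKβ KO, with 18.7 in DKO 1 and 10.7 in DKO 2. MXI1, which opposes MYC, was 14.9 and 8.46 FPKM in vector, 11.1 in MRCKα KO against 16.1 in MRCKβ KO, and 12.1 and 11.02 in DKO. The spread between the vector libraries, 1.72-fold for BHLHE40 and 1.76-fold for MXI1, exceeded the difference between the means of vector and DKO. ANKRD37, a small ankyrin repeat protein, was 6.88 and 4.26 FPKM in vector, 5.34 in MRCKα KO against 8.79 in MRCKβ KO, and 6.57 and 5.42 in DKO. KDM3A, a histone demethylase that needs oxygen, was 15.4 and 9.35 FPKM in vector, 13.7 in MRCKα KO against 16.6 in MRCKβ KO, and 13.6 and 10.01 in DKO. For both genes vector 2 was the lowest of the 6 libraries.

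The genes of collagen modification, most of which encode oxygen-dependent hydroxylases, split. P4HA1, a catalytic subunit of collagen prolyl hydroxylase, was 29.4 and 30.1 FPKM in vector, 23.2 in MRCKα KO against 35.4 in MRCKβ KO, and 24.5 and 21.1 in DKO, and its vector libraries were close (29.7 ± 0.502 SD, n = 2). P4HA2, the other such subunit on the list, was 10.8 and 11.9 FPKM in vector, 9.83 in MRCKα KO against 13.0 in MRCKβ KO, and 11.4 and 8.49 in DKO. In both genes MRCKβ KO was the highest library and DKO 2 the lowest. PLOD2, a lysyl hydroxylase, was 78.4 and 44.8 FPKM in vector, 66.2 in MRCKα KO against 71.2 in MRCKβ KO, and 64.2 and 45.4 in DKO, and LOX, which cross-links collagen, was 7.71 and 3.91 FPKM in vector, 6.91 in MRCKα KO against 8.18 in MRCKβ KO, and 6.94 and 6.42 in DKO. For PLOD2 and LOX the vector libraries held the lowest value and one of the 2 highest. PLOD1, another lysyl hydroxylase, ranged from 27.3 to 37.8 FPKM with vector 2 highest, and ERO1A, an oxidase of protein folding, was the steadiest member, from 45.1 to 50.3 FPKM (1.11-fold).

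Glucose enters through the transporters SLC2A1 and SLC2A3. SLC2A1 was 113 and 95.1 FPKM in vector, 78.2 in MRCKα KO against 106 in MRCKβ KO, and 88.1 and 87.6 in DKO, a range of 1.44-fold. SLC2A3 was 8.10 and 6.43 FPKM in vector, 4.8 in MRCKα KO against 8.73 in MRCKβ KO, and 7.97 and 6.94 in DKO, a range of 1.82-fold. MRCKα KO was the lowest library for both transporters.

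The 14 glycolytic enzymes on the list summed to 5388 and 5946 FPKM in vector, 4636 in MRCKα KO against 5533 in MRCKβ KO, and 4933 and 4937 in DKO. MRCKα KO and both DKO libraries were below both vector libraries. GAPDH was the most abundant of them at 1719 to 2502 FPKM, followed by PKM (745 to 907) and ENO1 (692 to 889). The muscle-type aldolase ALDOA was 347 to 489 FPKM, while the brain-type ALDOC had only 7 to 25 counts per library. HK1, a hexokinase that phosphorylates incoming glucose, was 69.7 to 84.2 FPKM, while HK2, the hexokinase induced by HIF, was 27.8 and 18.8 in vector, 27.2 in MRCKα KO against 30.3 in MRCKβ KO, and 27.3 and 21.8 in DKO. HK2 was the enzyme with the widest range among those above 1 FPKM (1.61-fold), with vector 2 lowest. The remaining ranges in FPKM were 66.9 to 78.1 for GPI, 67.0 to 81.1 for PFKP, 18.4 to 23.0 for PFKL, 345 to 434 for TPI1, 185 to 261 for PGK1, 212 to 305 for PGAM1 and 13.8 to 20.1 for ENO2.

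PFKFB3 and PFKFB4, which set the level of the phosphofructokinase activator fructose 2,6-bisphosphate, were even, at 11.2 to 14.1 and 3.67 to 4.51 FPKM. At the end of the route, LDHA, which turns pyruvate to lactate, was 869 and 807 FPKM in vector, 769 in MRCKα KO against 878 in MRCKβ KO, and 697 and 621 in DKO. The lactate exporter SLC16A3 was 84.6 to 108 FPKM, with MRCKα KO lowest. PDK1, which shuts pyruvate out of the mitochondrial cycle, was 4.32 and 3.48 FPKM in vector, 3.45 in MRCKα KO against 5.09 in MRCKβ KO, and 3.88 and 2.64 in DKO. All 3 genes were highest in MRCKβ KO, SLC16A3 by less than 1 FPKM over vector 1, and below both vector libraries in MRCKα KO, PDK1 by only 3.45 against 3.48 FPKM and no longer with TMM-scaled counts.

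**Figure D3:**
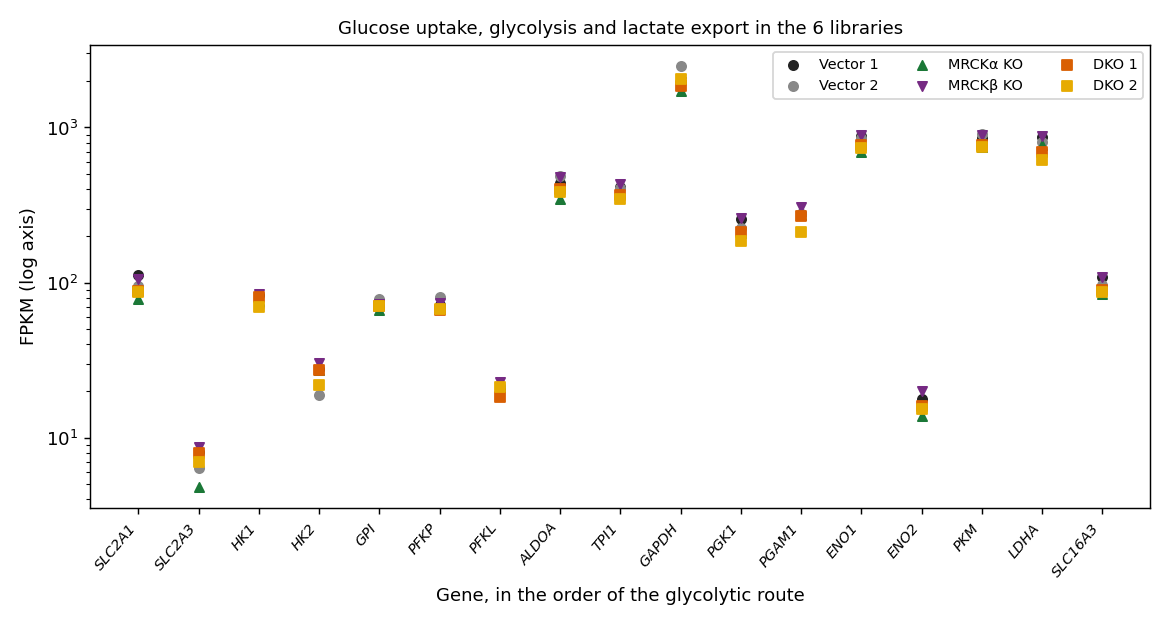
Level in FPKM (log axis) of 17 genes from glucose uptake to lactate export, in the order of the route, with 1 symbol per library. GAPDH is highest at 1719 to 2502 FPKM and SLC2A3 lowest at 4.8 to 8.73, and the downward triangle of MRCKβ KO tops most genes.

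The replicates bound what the comparisons can show. Besides NDRG1, which was chosen for such a difference, vector 1 was at least 1.5 times vector 2 for 9 of the 41 other members (ANKRD37, BHLHE40, CA12, DDIT4, EPAS1, KDM3A, LOX, MXI1 and PLOD2), against 8.83% of all genes, and vector 2 was never 1.5 times vector 1, against 5.55%. DKO 1 was at least 1.5 times DKO 2 for NDRG1 and, among the 41 others, for ANGPTL4, BHLHE40, CA12 and EGLN3, 4 members against 5.21% of all genes, and the reverse held for ADM alone, against 2.99%. At any size, vector 1 was above vector 2 for 28 members (50.8% of all genes) and DKO 1 above DKO 2 for 35 (47.5%). The median log2 ratio of vector 2 to vector 1 was -0.18 over the members and -0.01 over all genes, and that of DKO 2 to DKO 1 was -0.18 against 0.01.

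**Figure D4:**
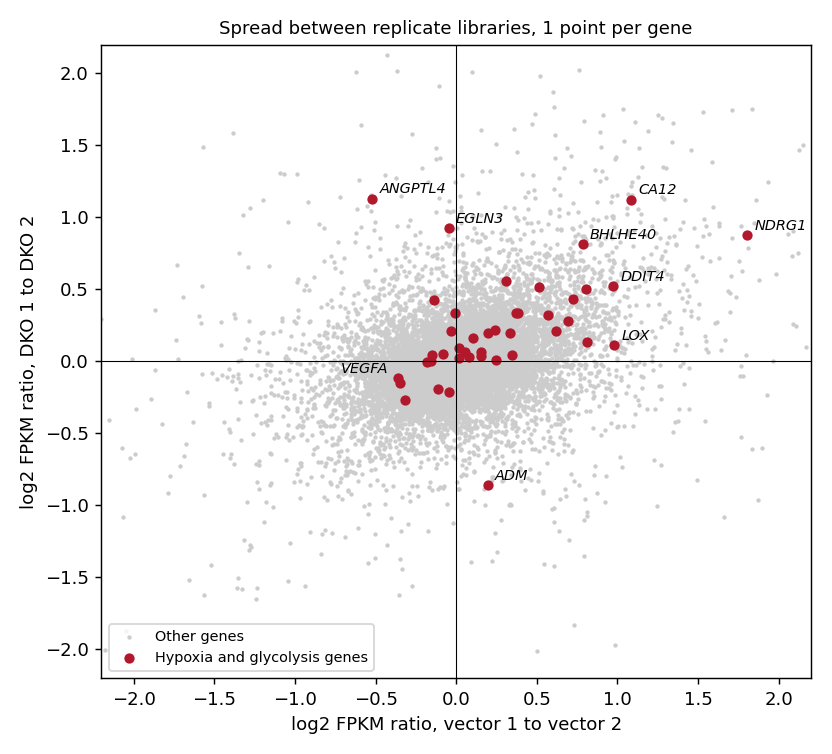
Spread between replicate libraries, as the log2 FPKM ratio of vector 1 to vector 2 (x axis) and of DKO 1 to DKO 2 (y axis), with 1 point per gene, members in red, other genes in grey and genes beyond the axes not drawn. NDRG1, CA12, BHLHE40 and DDIT4 lie at the upper right, above the bulk in both pairs, ANGPTL4 at the upper left and ADM at the bottom.

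DKO against vector was the only comparison with replicates on both sides. No member passed the test. The quasi-likelihood test of edgeR, adjusted by Benjamini-Hochberg over 13123 genes, called 0 genes (0%), with an adjusted p of 0.9996 for each of the 42 members read from it, all but CA9, which had too few counts, and NDRG1, which is not tested here. At an unadjusted p under 0.05, 134 genes (1.02%) were lower and 179 (1.36%) higher in DKO, and the members among them were 4, all lower. DESeq2 called 4 genes, of which 0 were members. The 4 members with an unadjusted p under 0.05 in edgeR were ANGPTL4 (log2 fold change -1.58, SE 0.476, unadjusted p = 0.015), VEGFA (-0.47, SE 0.162, unadjusted p = 0.027), P4HA1 (-0.40, SE 0.138, unadjusted p = 0.026) and LDHA (-0.37, SE 0.130, unadjusted p = 0.028). EGLN3 (-1.04, SE 0.436, unadjusted p = 0.052) and HIF1A (-0.44, SE 0.185, unadjusted p = 0.054) followed. That count of 4, against 2.39% of all genes in either direction, was 9 without vector 1 (8.6% of all genes), 14 without vector 2 (5.96%) and 0 without DKO 2 (1%). These p-values set the difference between the groups against the spread between libraries, which edgeR estimates in part from other genes. The groups were a pair of control transductions and a pair of guide sets.

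The estimates leaned to lower values in DKO without passing the test. The fitted log2 fold change was under 0 for 35 of these 42 members (83.3%), against 50.7% of all genes, and its median was -0.22 over the members and -0.002 over all genes. Both DKO libraries lay below both vector libraries for 16 of 42 members, against 12.3% of all genes, and above both for 0, against 17.3%. With TMM-scaled counts (CPM) in place of FPKM the counts were 20 below, against 14.9%, and 0 above, against 14%. The 16 held 7 glycolytic enzymes (ALDOA, ENO1, PFKP, PGAM1, PGK1, PKM and TPI1), the transport and lactate genes SLC2A1, SLC16A3 and LDHA, and ANGPTL4, EGLN3, ERO1A, HIF1A, P4HA1 and VEGFA. With the means at least 1.2-fold apart as well, 7 were lower (ANGPTL4, EGLN3, HIF1A, LDHA, P4HA1, PGK1 and VEGFA, against 4.41% of all genes) and 0 higher (7.18%). PGK1, an ATP-generating enzyme of the lower route, was 257 and 224 FPKM in vector, 210 in MRCKα KO against 261 in MRCKβ KO, and 212 and 185 in DKO. Leaving out vector 2 raised the 16 to 34 members, against 32.9% of all genes, and leaving out vector 1 gave 22, against 32.5%. None of the 5 members closest to NDRG1 was among the 16.

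**Figure D5:**
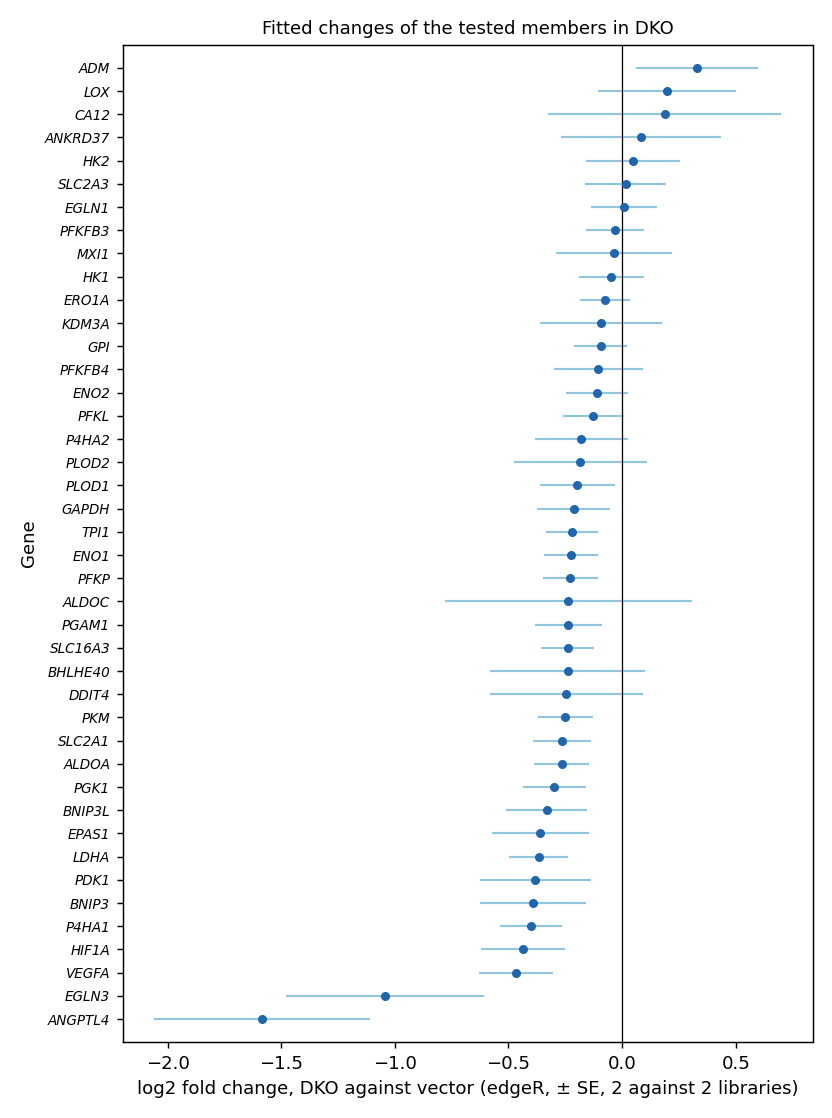
Fitted log2 fold change of DKO against vector (x axis, edgeR, 2 against 2 libraries) for the 42 tested members other than NDRG1 (y axis, sorted), where points are estimates and bars are ± 1 SE. Most points lie left of 0, from ANGPTL4 at -1.58 to ADM at 0.33, and none passed the adjusted test.

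In MRCKα KO, most members were low within a narrow range. The library was below both vector libraries for 26 of 42 members, against 26.3% of all genes, and above both for 0, against 33.1%. The 26 held 10 of the 13 measured glycolytic enzymes, both glucose transporters, LDHA, PDK1 and SLC16A3. The median log2 ratio to the vector mean was -0.20 over the members and 0.02 over all genes. Only ANGPTL4 was at least 1.5-fold below both vector libraries (1.48% of all genes), and 0 members were 1.5-fold above both (1.26%). Against single controls, 7 members were at least 1.5-fold lower than vector 1 (4.18% of all genes) and 0 higher (3.78%), while 3 were lower than vector 2 (4.82%) and LOX alone was higher (7%). This is 1 library, and its difference from the control has no replicate check.

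In MRCKβ KO the members sat on the other side. The library was above both vector libraries for 26 members, against 30.3% of all genes, and below both for ADM, ANGPTL4 and EGLN3, 3 members against 29.1%. The median log2 ratio to the vector mean was 0.13 over the members and 0.004 over all genes. EGLN3 alone was at least 1.5-fold below both vector libraries (0.692% of all genes) and 0 members were 1.5-fold above both (0.982%). EGLN3 rested on few counts, and its Poisson interval in MRCKβ KO overlapped those of the vector libraries. The choice of control decided the count here, since 11 members were at least 1.5-fold above vector 2 (8.79% of all genes) and 2 below it (5.18%), while 0 were above vector 1 (2.83%) and EGLN3 alone was below it (1.8%).

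The single knockouts, set against each other, differed in 1 direction. MRCKβ KO was above MRCKα KO for 40 of the 42 members, against 47.5% of all genes, and the exceptions were ADM and EGLN3. It was at least 1.5 times MRCKα KO for 10 (ANGPTL4, ANKRD37, BHLHE40, BNIP3L, CA12, DDIT4, EPAS1, NDRG1, P4HA1 and SLC2A3), against 4.18%, and the reverse held for 0, against 2.75%. NDRG1 differed 3.48-fold and DDIT4 2.17-fold. Vector 1 and vector 2 differed 3.49-fold and 1.96-fold for the same genes. The gap between the single knockouts was thus no larger than that between control transductions for NDRG1 and slightly larger for DDIT4. For CA12 it was smaller (1.98-fold against 2.12-fold). For ANGPTL4, ANKRD37, BHLHE40, BNIP3L, EPAS1, P4HA1 and SLC2A3 it was larger. The margin ran from small, as for ANKRD37 (1.65-fold against 1.62-fold), to wider, as for SLC2A3 (1.82-fold against 1.26-fold). Across all knockouts, ANGPTL4 and EGLN3 were the 2 members below both vector libraries in all 4, against 4.89% of all genes, and 0 were above both in all 4 (6.82%).

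By the rule of the study, which left out genes whose replicates differed over 2-fold, averaged the rest and took a 2-fold ratio as a change, few members were past the limit. In MRCKα KO the one member was ANGPTL4, lower (2.47% of genes with a ratio were lower and 1.91% higher). In MRCKβ KO there was none, with 1.84% of genes lower and 1.65% higher. In DKO it was EGLN3, lower (0.759% of genes lower and 1% higher). NDRG1, CA12 and CA9 had no ratio in any of the 3 knockouts, because their vector libraries were over 2-fold apart, and ANGPTL4 had none in DKO, whose libraries were 2.19-fold apart for it.

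Further genes of the pathway were read from wider lists. Of 13 tested HIF regulators, such as the partner subunit ARNT and the ubiquitin ligase component VHL, 0 passed the test in DKO and 0 had an unadjusted p under 0.05. Their median log2 fold change was 0.05. Among the 12 regulators with a mean of at least 1 FPKM, both DKO libraries were below both vector libraries for 3 (12.3% of all genes) and above for 3 (17.3%). VHL was 14.3 to 17.7 FPKM and ARNT 9.95 to 12.0. CITED2, a HIF target that competes with HIF for its coactivators, was 137 and 85.5 FPKM in vector, 163 in MRCKα KO against 174 in MRCKβ KO, and 148 and 140 in DKO. Vector 2 was its lowest library. All 4 knockout libraries were above both vector libraries, as for 6.82% of all genes, though DKO 2 was close to vector 1. Of 33 tested further HIF targets, 0 passed the adjusted test and MAFF, a small MAF factor, was higher at an unadjusted p of 0.010. Their median log2 fold change was -0.07. Among the 31 of these targets with a mean of at least 1 FPKM, both DKO libraries were below both vector libraries for 4 (12.3% of all genes) and above for 4 (17.3%). Vector 1 and MRCKβ KO were both above the other 4 libraries for 10 of the 31 with a mean of at least 1 FPKM, against 11.5% of all genes. Of 23 other tested genes of glucose metabolism, 0 had an unadjusted p under 0.05.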

How the data were processed

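RNA was sequenced from 6 MDA-MB-231 libraries by BGI as single-end reads of 50 bases. The submitters' processing notes name HISAT, Bowtie2 and RSEM, without versions, and the genome build GRCh38.p11. The authors deposited expected counts per gene, estimates of reads without normalization that can hold fractions, and FPKM, which the authors' service provider computed from reads, transcript length and library total and rounded to 2 decimals. All 6 columns of the deposited FPKM table were matched to a sample.

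From these files, expected counts were rounded, filtered with filterByExpr, normalized by TMM and tested with edgeR 4.0.16 (quasi-likelihood, 2 vector against 2 DKO libraries, no replicate block, Benjamini-Hochberg over all genes, threshold 0.05) in R 4.3.3. DESeq2 1.42.0 and limma 3.58.1 were alternatives. With 1 library for each single knockout, FPKM were compared there with both vector libraries without a test, for genes with a mean of at least 1 FPKM and a fold of 1.5. The rule of the study (replicates over 2-fold apart left out, the rest averaged, 2-fold) was applied as its methods state. The paper also mentions leaving out poorly expressed genes, without a limit, and that step was not applied. The shares of all genes by this rule thus include such genes. The counts of members were the same with a mean of at least 1 FPKM in either group. Intervals cover counting error only, since each is computed from the count of 1 library. The reads carry no molecular identifiers. Promoters are the 250 bases before the first listed RefSeq start.

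The members and lists were chosen with earlier results of these data known, so no p-value is adjusted over a list. Values in every library are given for NDRG1, for members with a range of at least 1.5-fold, for the 5 largest fitted changes, for members whose DKO and vector libraries do not overlap with means 1.2-fold apart, and for the HIF subunits and sensors. Centring on transcript length, TMM-scaled counts in the non-overlap counts, and their leave-one-out values were added after seeing the data. Some other lists in the text were read only as descriptions.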

Additional observations from a re-analysis of the deposited data

How the results depend on the processing

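In DKO against vector, 0 members were called under any of the 14 settings. The count of all genes called was 0 in edgeR and 4 in DESeq2, and 0 to 5 with 1 library left out (1 without vector 1, 5 without DKO 1). The labels link same-numbered libraries only by their number and do not say whether they were handled together. With replicate number as a block, 5 genes were called, with 0 members and 12 members at an unadjusted p under 0.05, where the share of all genes at that p was 6.07% against 2.39% without the block. The deviations of DKO 1 and vector 1 from their group means had a correlation of 0.369 over 11054 genes. Vector 1 was above vector 2 and DKO 1 above DKO 2 for 27 of 42 members, NDRG1 included, against 30.2% of all genes. Whether the same-numbered libraries shared a batch was not tested. The median log2 fold change of the members stayed under 0, from -0.29 to -0.14 with 1 library left out.

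In MRCKα KO, 1 member was 1.5-fold outside both vector libraries. The count was 2 with no filter on mean FPKM or with ratios centred on transcripts of like length, 0 with a mean of at least 5 FPKM, and 4 to 7 with 1 vector library left out (4 without vector 1, 7 without vector 2). In MRCKβ KO the count of 1 became 2 with no filter, 0 with FPKM + 1, a mean of at least 5 FPKM or a 2-fold limit, and 1 to 13 with 1 vector library left out (13 without vector 1). The 10 members apart between the vector libraries, NDRG1 included, were 2 at 2-fold. The 6 apart between the DKO libraries, NDRG1 included, were 3 with a mean of at least 5 FPKM and 2 at 2-fold. The 16 members with both DKO libraries below both vector libraries ranged from 21 to 34 with 1 library left out, where fewer libraries need to be separate. They were 22 without vector 1 (32.5% of all genes), 34 without vector 2 (32.9%), 24 without DKO 1 (25.8%) and 21 without DKO 2 (25%). Without its replicate filter, the rule of the study gave 2 of 44 members in MRCKβ KO, against 8.29% of all genes, and 3 in DKO, against 8.07%. Of the other values that answer a comparison, 70 stayed within 1.5 times the main count or within the spread, and none changed direction. The fitted change of ANGPTL4 ranged from -2.31 to -1.10, of VEGFA from -0.66 to -0.25 and of LDHA from -0.46 to -0.28, with 0.32 as the lowest adjusted p among them. CA9 had too few counts to enter the test.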

Other observations

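Genes of the ATF4 response to amino acid and protein-folding stress were read beside the hypoxia genes. Vector 1 and MRCKβ KO were both above the other 4 libraries for 1 of the 12, against 11.5% of all genes. Of 12 tested, 0 passed edgeR's adjusted test in DKO and 4 had an unadjusted p under 0.05, all higher, against 1.36% of all genes. Both DKO libraries were above both vector libraries for 4 of the 12 (17.3% of all genes) and below both for 1 (12.3%). ATF3, a stress-induced factor, was 4.56 and 3.15 FPKM in vector, 10.96 in MRCKα KO against 8.85 in MRCKβ KO, and 9.84 and 8.95 in DKO. All 4 knockout libraries were thus above both vector libraries, as for 6.82% of all genes. DDIT3, which encodes CHOP, was 23.9 and 25.6 FPKM in vector, 35.2 in MRCKα KO against 35.8 in MRCKβ KO, and 36.4 and 47.8 in DKO, with the same separation. TRIB3 and SESN2 were the rest of the 4. TRIB3 separated likewise, but SESN2 did not, at 3.35 FPKM in MRCKα KO against 3.42 and 3.90 in vector. The fitted log2 fold changes of PSAT1 (-0.16), PHGDH (-0.13), SLC7A11 (-0.08) and VLDLR (-0.002) were under 0. TXNIP, a gene that responds to glucose, was 46.9 and 33.9 FPKM in vector, 41.9 in MRCKα KO against 56.6 in MRCKβ KO, with 38.4 in DKO 1 and 58.6 in DKO 2, with no separation of the groups.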
